A study of Caenorhabditis elegans with 4 samples.

Results

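The middle segment of the X chromosome of Caenorhabditis elegans, 1 of 3 of about equal length, held 271 of the 4203 nuclear peaks (6.45%) in the TBP-1 peak list of the whole series. A peak belonged to it when its centre lay between base 5900001 and base 11800000 of X on genome release WS220, so membership rested on position alone and no score or overlap entered the choice. The peaks come from chromatin immunoprecipitation and sequencing (ChIP-seq), in which DNA bound by a protein is recovered with an antibody (here a rabbit polyclonal one), sequenced, and called as a peak where reads pile up. There were 2 TBP-1 ChIP samples and 2 input samples, the input being sonicated chromatin taken before the antibody step. All 4 came from the wild-type N2 strain and from embryos of mixed stages and both sexes, bleached out of gravid adults grown in liquid culture at 20 °C and fixed for 30 minutes in 2% formaldehyde, with 2 mg of extract per immunoprecipitation and 10% kept as input. A list was analysed for each ChIP replicate and for the series as a whole, and none for an input sample. Each list therefore averages over all the cells of a pool of whole embryos, of mixed stage and of both sexes, and a peak cannot be placed in one cell type, stage or sex. Whether the replicates came from separate cultures is not given in the labels.

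TBP-1 is the worm's TATA-binding protein, a general factor that takes part in transcription by RNA polymerases I, II and III, and at polymerase II promoters acts within the complex TFIID. The X chromosome of this species is under dosage compensation: in XX embryos a condensin-like complex binds both X chromosomes along their length and lowers their transcription, while XO males have a single X. The middle, left and right segments are cuts by length alone and not chromatin domains. Peaks were not assigned to genes.

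TBP-1 peaks were spread along the whole of the middle segment, more thinly than on the right segment in the series list and at a density that could not be told apart from that of the left segment. The series list had 45.9 peaks per Mb on the middle segment, against 64.0 on the right segment, 49.5 on the left segment, 56.8 on those outer segments together (the rest of X) and 39.5 on the autosomes. Replicate 1 had 20.7 peaks per Mb on the middle segment, 24.7 on the right, 18.5 on the left and 15.8 on the autosomes. Replicate 2 had 32.4 on the middle segment, 40.7 on the right, 33.1 on the left and 24.6 on the autosomes. In all 3 lists the middle segment thus stood below the right segment and above the autosomes, while the left segment was above it in the series list and in replicate 2 and below it in replicate 1. The share of all peaks that lay on the middle segment hardly differed between the replicates: 122 of 1684 peaks (7.24%) in replicate 1 and 191 of 2660 (7.18%) in replicate 2, a mean of 7.21% ± 0.05 (SD, n = 2). The density itself was 26.5 ± 8.27 peaks per Mb over the replicates (SD, n = 2), replicate 2 having more peaks in every region.

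**Figure D1:**
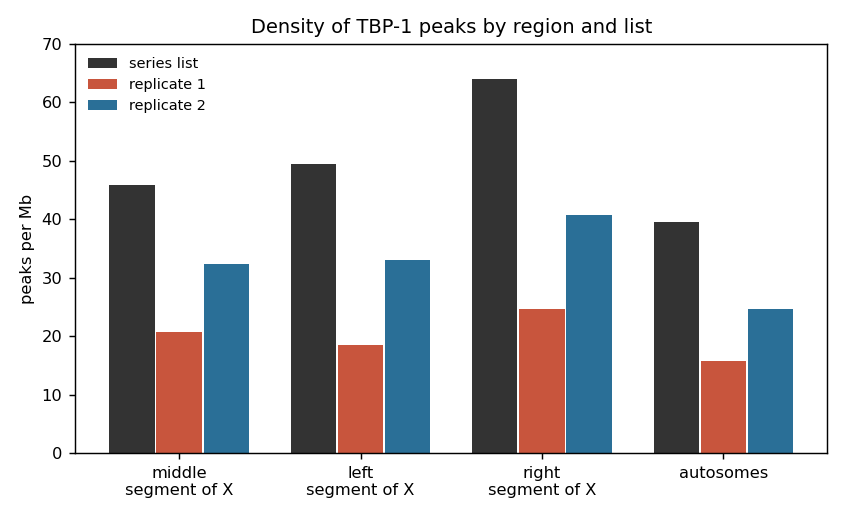
Peaks per Mb (vertical axis, starting at 0) on the middle, left and right segments of X and on the autosomes, in the series list and the 2 replicate lists; each bar is 1 list in 1 region. In every list the middle segment is lower than the right segment and higher than the autosomes; the series list has 45.9, 64.0 and 39.5 peaks per Mb there.

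Of these density differences, 2 passed the test. Unless stated otherwise, the tests take the error of a ratio from the spread between 100 kb windows, and none takes it from that between cultures. In a quasi-Poisson model of peaks per window over n = 1005 nuclear windows, two-sided, with Benjamini-Hochberg adjustment over the 12 density tests, the middle segment had 0.717 times the density of the right segment in the series list (95% interval 0.578 to 0.890, adjusted p of 0.0155). The same ratio was 0.795 in replicate 2 (0.638 to 0.991, adjusted p of 0.125) and 0.838 in replicate 1 (0.588 to 1.19, adjusted p of 0.492), below 1 in both, past the threshold in neither. Replicate 2 also had 1.31 times the density of the autosomes (1.11 to 1.56, adjusted p of 0.0155). The corresponding ratio was 1.31 in replicate 1 (0.993 to 1.72, adjusted p of 0.134) and 1.16 in the series list (0.979 to 1.38, adjusted p of 0.172). Against the rest of X the ratio was 0.809 in the series list (0.665 to 0.984, adjusted p of 0.125), 0.958 in replicate 1 (adjusted p of 0.861) and 0.878 in replicate 2 (adjusted p of 0.336). Against the left segment it was 0.928, 1.12 and 0.979 in the series list, replicate 1 and replicate 2, with adjusted p of 0.673, 0.673 and 0.861. The lower density against the right segment was not called in the series list among peaks above the median score (0.703, adjusted p of 0.0507), among peaks found in both replicates (0.735, adjusted p of 0.201) or when covered base pairs replaced peaks (0.859, adjusted p of 0.831). The call in replicate 2 was lost when the middle segments of the autosomes alone were the comparison (1.28, adjusted p of 0.0635).

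Within the middle segment, the peaks were uneven. Of its 59 windows of 100 kb, the median held 4 series-list peaks, 1 held none and 4 held 10 or more; on the rest of X the median of 119 windows was 5, with 2 empty and 17 of 10 or more. Of the 827 autosomal windows, with a median of 4, 47 were empty and 29 held 10 or more. The fullest window of the middle segment, at 7.3 to 7.4 Mb, held 20 series-list peaks, with 16 in replicate 1 and 5 in replicate 2. Replicates 1 and 2 thus parted in that window, which holds the dense run described further on. The next fullest windows were shared more evenly: 8.1 to 8.2 Mb held 13 peaks in the series list, 6 in replicate 1 and 8 in replicate 2. The window from 6.2 to 6.3 Mb held 10, 6 and 11 in the same lists, and that from 8.8 to 8.9 Mb held 10, 7 and 8. The empty window, at 6.4 to 6.5 Mb, had no peak in the series list or replicate 1 and 1 in replicate 2. In 10 bins of 0.59 Mb, the density in the series list was lowest at 6.49 to 7.08 Mb, with 20.3 peaks per Mb, and highest at 7.08 to 7.67 Mb, with 62.7. The 3 bins that follow, up to 9.44 Mb, held 55.9, 59.3 and 55.9 peaks per Mb and also the most peaks found in both replicates, 14, 19 and 15. The fullest bin, in contrast, held 6 such peaks among its 37. The lower and upper parts of the region, split at its midpoint, held 146 and 125 series-list peaks, 66 and 56 replicate 1 peaks, and 93 and 98 replicate 2 peaks.

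**Figure D2:**
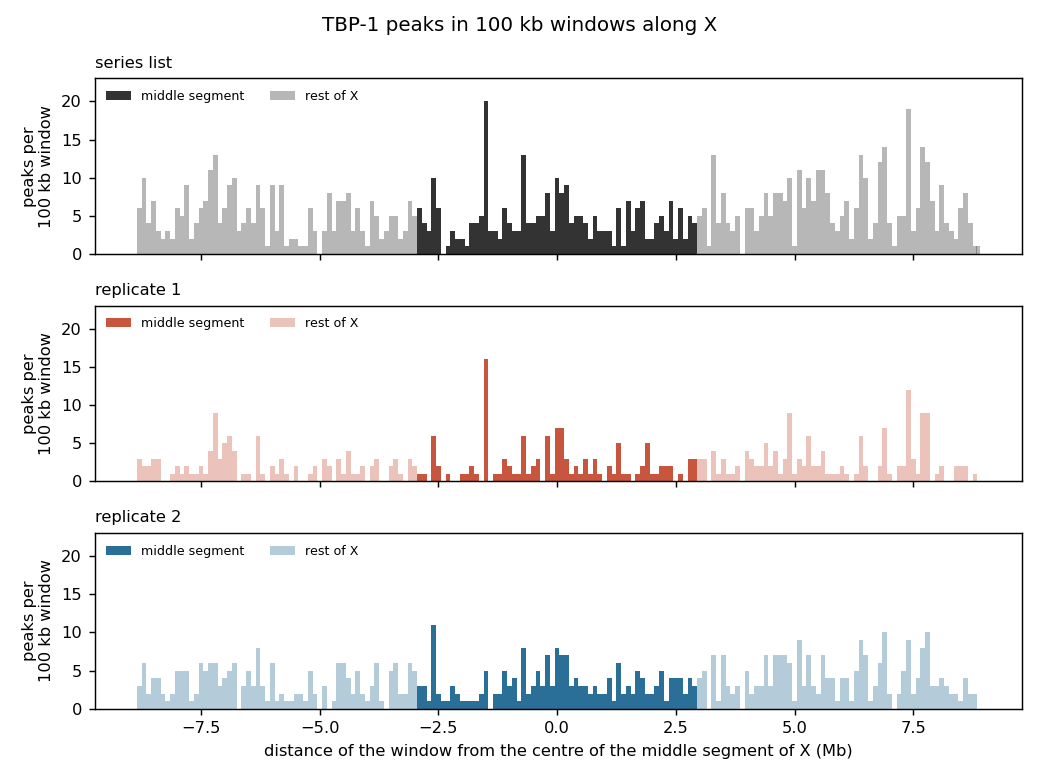
Number of peaks in each 100 kb window along X, for the series list and the 2 replicate lists. Windows are placed by distance from the centre of the middle segment in Mb. Bars of the middle segment are in full colour and those of the rest of X are paler. The tallest window of the middle segment holds 20 series-list and 16 replicate 1 peaks but 5 replicate 2 peaks; no such window appears in replicate 2.

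The score of a peak is the authors' own value, of unstated scale, and was used here for ranks within a list and nothing else. By that rank the middle segment had peaks of every strength. Of its 271 series-list peaks, 138 (50.9%, 95% Wilson interval 45.0 to 56.8%) scored above the list's median, against 51.3% on the rest of X and 49.6% on the autosomes. The strongest 25% of the list took in 85 of the 271 (31.4%, interval 26.1 to 37.1%), against 27.0% on the rest of X and 24.1% on the autosomes, and the strongest 10% took in 40 (14.8%), against 11.8% and 9.23%. The odds of scoring above the median were 0.986 times those on the rest of X (0.722 to 1.35, adjusted p of 0.931) and 1.05 times those on the autosomes (0.800 to 1.38, adjusted p of 0.809) in a quasi-binomial model over windows, adjusted over the 14 tests of the series list. No difference in the share of stronger peaks passed the test, in the replicates either. In replicate 1, 58.2% of the peaks of the middle segment scored above the list's median, against 52.2% on the rest of X and 48.8% on the autosomes (adjusted p of 0.547 and 0.208). In replicate 2 the shares were 56.0%, against 55.0% and 48.4% (adjusted p of 0.937 and 0.208).

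The strongest member lay at X:9637029-9638199, 1171 bp wide, with a series score of 246.25, the highest of the list, a score that 7 peaks share, 1 of them on the middle segment. It scored 3081.93 in replicate 1 and 3100 in replicate 2. The next was X:8646148-8646833, ranked 26 in the series with 241.73, then X:6371024-6371558 with 239.36, X:9467329-9468069 with 237.7 and X:8971252-8971793 with 233.37. Of the 12 strongest members found in both replicates, the last was X:10963387-10964213, ranked 111 with 221.65. These peaks were not gathered in one place: they lay at positions between 6292049 and 10964213. Their replicate 2 scores were at least as high as 2152.47, and their replicate 1 scores at least 1694.72. In all, 10 members were among the strongest 100 of the series list. The score of 3100 was shared by 60 replicate 1 peaks, 6 of them on the middle segment, and by 175 replicate 2 peaks, 17 of them there, so ranks at the top of the replicate lists are tied.

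Overlap with the replicates followed the score closely. The series list is not independent of the replicates where it was made from the same reads, so this relation may be partly built in. Of the 271 members, 104 (38.4%, interval 32.8 to 44.3%) overlapped a peak in both replicates by at least 1 bp, 91 overlapped one in replicate 2 only, 15 in replicate 1 only and 61 (22.5%, interval 17.9 to 27.8%) in neither. Over all nuclear peaks of the series list, 34.5% were found in both and 29.0% in neither, so the members' shares lie near that background. On the rest of X, 35.6% were found in both and 27.1% in neither, and on the autosomes 33.9% and 29.9%. Members found in both had a median score of 103.59 and a range of 15.2 to 246.25. Members found in neither had a median of 5.9 and none above 16.02, members found in replicate 1 only a median of 5.56, and members found in replicate 2 only a median of 8.3. No member missing from 1 or both replicates scored above 39.08, and all 54 members that scored at least 100 were in both.

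Cutting the series list into 4 score classes of about 25% of its peaks each showed the same order, under the same limit. On the middle segment, class 1, the weakest, had 67 members, 0 of them in both replicates and 30 in neither, and class 2 had 66 members, again with 0 in both and 30 in neither. Class 3 had 53 members, 19 in both and 1 in neither. All 85 members of class 4, the strongest, were in both. The other regions had a similar order. In class 4, 97.2% of the peaks on the rest of X and 97.5% on the autosomes were in both. In class 3 the share was 35.8% on the middle segment, against 35.6% and 32.8%. It was 0.625% and 2.43% in class 1, and 2.40% and 5.63% in class 2, on the rest of X and the autosomes. In class 1, 44.8% of the members were in neither replicate, against 65.6% on the rest of X and 63.0% on the autosomes. In class 2 the shares were 45.5%, against 38.3% and 46.6%, and in class 3 they were 1.89%, against 7.98% and 8.98%. These shares were not tested class by class.

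**Figure D3:**
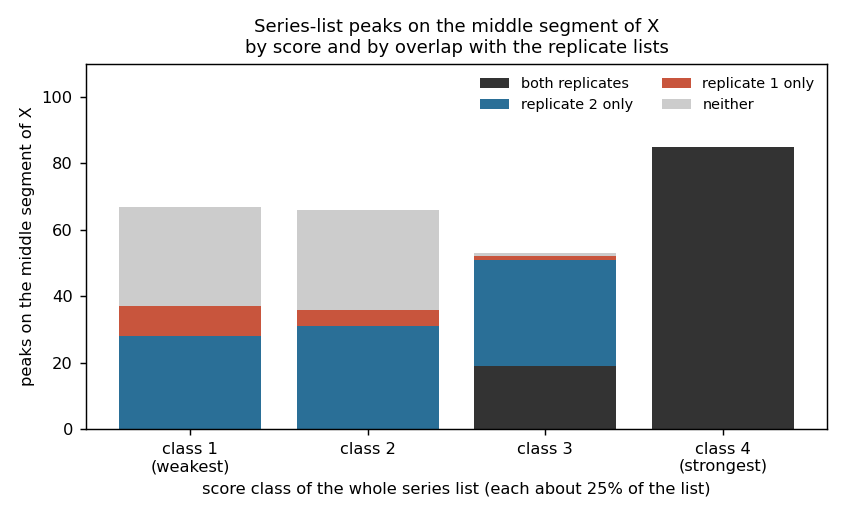
Number of series-list peaks on the middle segment of X (vertical axis) in each score class of the whole list, weakest to strongest; the colours within a bar stand for peaks found in both replicates, in 1 of them and in neither. Classes 1 and 2, with 67 and 66 members, hold no peak found in both replicates, and all 85 members of class 4 were found in both.

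No difference in these overlaps passed the test. The odds of being found in both replicates were 1.13 times those on the rest of X (0.802 to 1.58, adjusted p of 0.690) and 1.22 times those on the autosomes (0.903 to 1.64, adjusted p of 0.383). The odds of being found in neither were 0.780 times those on the rest of X (0.540 to 1.13, adjusted p of 0.383) and 0.680 times those on the autosomes (0.490 to 0.943, adjusted p of 0.250). Replicate 2 peaks overlapped 195 of the 271 members (72.0%), against 69.7% on the rest of X and 64.5% on the autosomes, and replicate 1 peaks overlapped 119 (43.9%), against 38.7% and 39.5%. The adjusted p was 0.723 and 0.250 for replicate 2 and 0.383 and 0.383 for replicate 1. With the score class in the quasi-binomial model, the units were the score classes within each window. The odds ratio for both replicates then came to 0.9998 against the rest of X and 0.921 against the autosomes. In that model it was 0.707 and 0.623 for neither replicate (adjusted p of 0.236 and 0.0690). For replicate 2 it was 1.16 and 1.54 (adjusted p of 0.793 and 0.0998), and for replicate 1 it was 1.28 and 0.981. None of these passed the test.

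**Figure D4:**
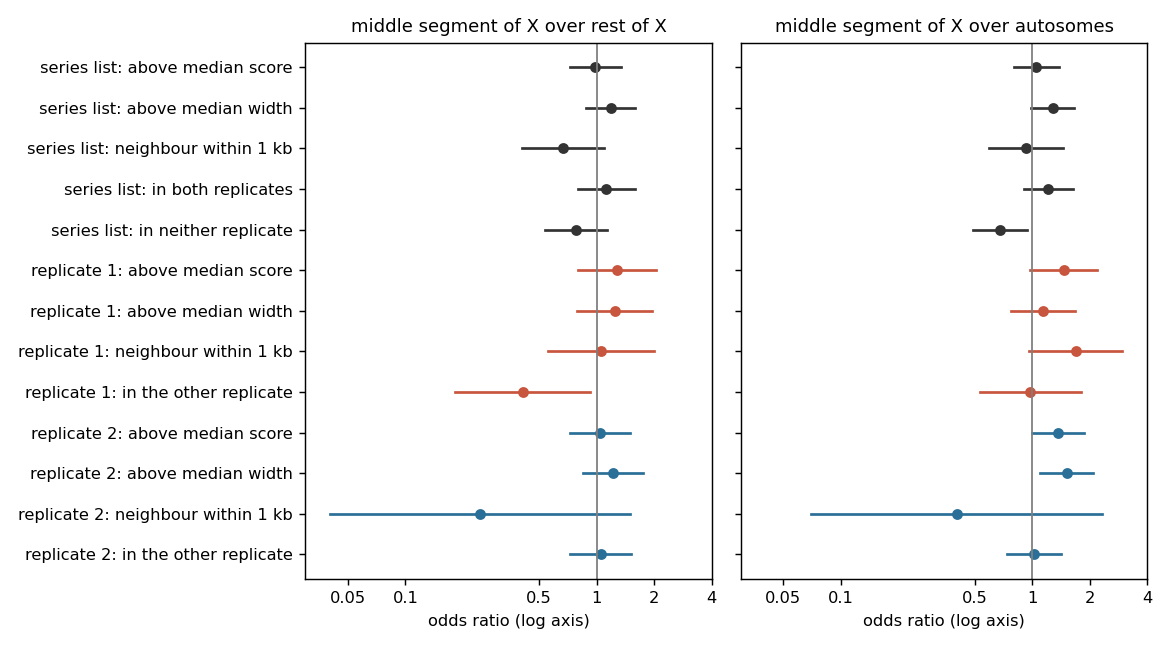
Odds ratios on a log axis, with 95% intervals from the quasi-binomial models, of shares on the middle segment over the rest of X (left panel) and over the autosomes (right panel), for the series list and both replicate lists. None of the differences drawn passed the test at an adjusted p of 0.05; the odds ratio of replicate 1 peaks being found in replicate 2, 0.411 against the rest of X, has an adjusted p of 0.208.

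The strongest members found in neither replicate ranked far down the series list. First was X:7501040-7501225, 186 bp wide, with a score of 16.02 and rank 1750, followed by X:9074610-9074790 with 11.78 and X:8286780-8286978 with 11.49. Members found in 1 replicate reached rank 1052, at X:6091934-6092320 with a score of 39.08, and the 5 strongest of them were all in replicate 2 and not in replicate 1. One of these, X:8157094-8157390 with 35.46, lies under a single replicate 2 peak of 3671 bp that also covers the much stronger member X:8155205-8156879, whose score is 228.58. Of the 191 replicate 2 peaks of the middle segment, 162 held 1 series-list peak, 15 held 2, 1 held 3 and 13 held none; of the 122 replicate 1 peaks, 113 held 1, 5 held 2 and 4 held none. The series list thus had 2 or more peaks under 16 replicate 2 peaks and under 5 replicate 1 peaks.

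Where a member was found in a replicate, its ranks followed each other closely. Across the 96 replicate 2 peaks of the middle segment that met a replicate 1 peak, Spearman's rho of the scores was 0.90, against 0.90 over 214 peaks on the rest of X and 0.85 over 1009 on the autosomes. Between the series list and replicate 1 it was 0.86 over 119 members, against 0.74 over 260 peaks and 0.74 over 1288. Between the series list and replicate 2 it was 0.85 over 195 members, against 0.80 over 468 peaks and 0.77 over 2102. These are correlations across peaks, which are not independent replicates, and the series list is not independent of the replicates where it was made from the same reads.

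Members varied widely in width. The median width of the 271 members was 293 bp, with quartiles of 193.5 and 462 bp and a range of 146 to 4250 bp, against a median of 277 bp on the rest of X and 270 bp on the autosomes. In replicate 1 the medians were 527 bp, against 503 and 511 bp, and in replicate 2 898 bp, against 866.5 and 837 bp. The share wider than the list's median was 55.4% in the series list, against 51.1% on the rest of X and 49.1% on the autosomes, with odds ratios of 1.19 (adjusted p of 0.401) and 1.28 (adjusted p of 0.276). The highest odds ratio for width was in replicate 2 against the autosomes, 1.51 (1.10 to 2.08, adjusted p of 0.163), with 58.6% of the peaks wider than the median, against 48.4%. None of these differences passed the test. Peaks covered 1.93% of the middle segment in the series list, against 2.08% of the rest of X and 1.48% of the autosomes. The coverage was 1.41%, against 1.37% and 1.06%, in replicate 1 and 3.43%, against 3.75% and 2.52%, in replicate 2.

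Width went with overlap. Members found in both replicates had a median width of 480 bp, those found in neither 179 bp. Of the 75 members narrower than 200 bp, 0 were found in both replicates and 43 in neither, while 12 of the 13 members wider than 1 kb were in both. These counts were taken for the members alone, so they show no trait particular to the middle segment. Width also rose with score in every region. From class 1 to class 4 of the series list the median went from 183 to 479 bp on the middle segment. It went from 178 to 449 bp on the rest of X and from 186 to 467 bp on the autosomes. A wider peak also meets an overlap of 1 bp more easily. The widest member lay at X:10361030-10365279, 4250 bp, with the member X:10365371-10369187, of 3817 bp, beside it. Each replicate had 1 peak over both, of 8230 bp in replicate 1 and of 8717 bp in replicate 2, the widest peak of the middle segment in its list. Their scores were moderate, 29.88 and 27.65 in the series list, 376.2 in replicate 1 and 402.4 in replicate 2. The second widest member, X:9184863-9188729 of 3867 bp, scored 40.59 in the series list, 2705.39 in replicate 1 and 1222.65 in replicate 2. The 5 widest members ranked between 860 and 1271 in the series list.

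In the series list, spacing ran in the order of the densities. The median distance between neighbouring peak centres was 12.1 kb on the middle segment in the series list, against 10.6 kb on the left segment, 7.89 kb on the right segment and 13.9 kb on the autosomes. In replicate 2 it was 16.7 kb, against 21.3, 13.8 and 23.7 kb. In replicate 1 it was 18.0 kb, against 33.4, 18.7 and 32.5 kb, the shortest median being that of the middle segment. Without the peaks of the dense run described further on, the median on the middle segment was 26.9 kb in replicate 1 and 12.8 kb in the series list. The replicate 1 value then lay above the 18.7 kb of the right segment. The run was chosen for its close spacing and left out of this segment alone, so the direction of this change was fixed by the choice. The longest stretches with no series-list peak ran between bases 6378644 and 6593229 (215 kb), 6903439 and 7068426 (165 kb), and 8426471 and 8546060 (120 kb). One of the peaks that bound these gaps, X:6902851-6903439, is among the 12 strongest members. Gaps over 100 kb numbered 6 of 270 on the middle segment, 5 of 291 on the left, 3 of 378 on the right and 127 of 3256 on the autosomes. The longest gaps of the replicates were 274 kb in replicate 1, between bases 6593932 and 6867521, and 173 kb in replicate 2, between bases 6903722 and 7077207, both touching the poorly covered bin at 6.49 to 7.08 Mb.

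Few members had a close neighbour. Of the 271 members, 42 (15.5%, interval 11.7 to 20.3%) had another centre within 1 kb, against 26.1% on the right segment, 15.8% on the left, 21.6% on the rest of X and 16.5% on the autosomes. The odds ratio was 0.665 against the rest of X (0.407 to 1.09, adjusted p of 0.367) and 0.930 against the autosomes (0.595 to 1.45, adjusted p of 0.809), so neither difference passed, and the right segment was not tested alone. Replicate 1 had 18.9% of its peaks so placed, against 18.0% on the rest of X and 12.1% on the autosomes, with adjusted p of 0.937 and 0.208. Replicate 2, with its wider peaks, had 1.05% (2 of 191), against 4.13% and 2.56%, with adjusted p of 0.343 and 0.547. The closest pair of series-list centres was 225.5 bp apart, in the 2 neighbouring peaks of X:10395570-10395961. In replicate 1, centres 261, 270 and 401 bp apart lay in the dense run described further on, which replicate 2 lacks. A pair 344.5 bp apart, from base 10749833, had no peak in replicate 2 or the series list. Pairs 444.5 and 447 bp apart, from bases 8817859 and 11162758, were found in replicate 2. The share of replicate 1 peaks with a neighbour within 500 bp was not tested without the run.

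The densest place on the middle segment was a run of weak, closely spaced peaks that the series list shared with replicate 1 and not with replicate 2. In the series list 13 peaks, each centre within 1 kb of the next, lay at X:7352786-7360742, a stretch of 7.957 kb. Their scores were between 3.22 and 7.98, the highest of them at percentile 37.3 of the list, and their widths between 170 and 1098 bp. In replicate 1 a chain of 10 peaks covered X:7351769-7357533, with scores of 52.73 to 199.04 and widths of 226 to 531 bp, and 2 more peaks followed by 7360492. Replicate 2 had no peak in the whole 8.974 kb span. Its nearest peaks were X:7333965-7334981, which scored 272.84 and ended 16.8 kb before the span, and X:7378347-7379066, which scored 496.48 and began 17.6 kb after it. The second of these flanking places also had a peak in replicate 1, with a score of 328.04, and one in the series list, with 80.82. The span held 14 series-list peaks in all, since X:7351349-7352181 overlaps its start.

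**Figure D5:**
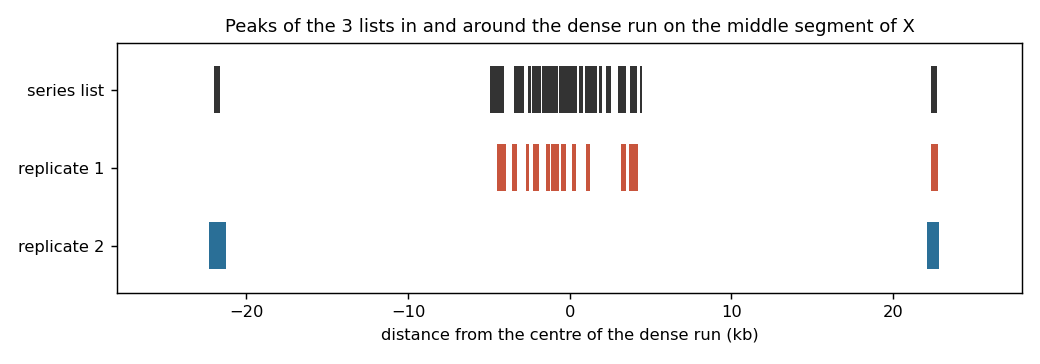
Peaks of the series list, replicate 1 and replicate 2 around the dense run, by distance from its centre in kb; each block is 1 peak from start to end. The 8.974 kb span holds 14 series-list and 12 replicate 1 peaks and 0 replicate 2 peaks, while both flanking replicate 2 peaks have a series-list peak and the right one a replicate 1 peak.

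This run was the longest by number of peaks among the 11 series-list runs of 5 or more, the next having 7. Another 4 of the 11, on II, IV, V and the right segment of X, also had no replicate 2 peak, so the pattern was not particular to this place. Replicate 1 had 1 other such run, of 6 peaks at III:7422496-7426552, also with none in replicate 2, and replicate 2 had no run at all. What gave rise to the run was not tested: the lists hold no read counts, and the gene content or repeats of the place were not analysed here.

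Most replicate 1 peaks of the middle segment that were missing from replicate 2 lay in the run. Of the 122 replicate 1 peaks there, 102 (83.6%, interval 76.0 to 89.1%) were found in replicate 2, against 236 of 255 (92.5%) on the rest of X and 83.9% on the autosomes; over all nuclear replicate 1 peaks the share was 85.2%. The odds ratio against the rest of X was 0.411 (0.182 to 0.925, adjusted p of 0.208), and against the autosomes 0.976 (0.531 to 1.79, adjusted p of 0.938). Of the 20 peaks not found, 12 lay in the 8.974 kb span of the run. Without the run, left out after the data were seen and partly because replicate 2 lacks it, 102 of 110 (92.7%) were found in replicate 2, an odds ratio of 1.03 against the rest of X, given as a description. Of the other 8, 3 lay together at X:10749833-10751188, with scores of 67.07 to 82.78 and no peak in the series list, and 5 stood alone. The strongest of those 5 was X:8231701-8232080 with 119.44. Among replicate 1 peaks not in replicate 2, the highest score of all was 199.04, at the start of the run.

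In the other direction, 96 of the 191 replicate 2 peaks (50.3%, interval 43.2 to 57.3%) were found in replicate 1, against 49.1% on the rest of X and 49.6% on the autosomes, and 49.6% over all nuclear replicate 2 peaks. The odds ratio was 1.05 against the rest of X (0.723 to 1.52) and 1.03 against the autosomes (0.742 to 1.42), both with adjusted p of 0.937. The strongest of those not found lay in the upper part of the list: X:6091637-6092697 scored 680.67, X:11030708-11031974 scored 678.72 and X:6622310-6623197 scored 463.89. By score class of the replicate 2 list, weakest to strongest, 0 of 48, 4 of 36, 30 of 45 and 62 of 62 peaks of the middle segment were found in replicate 1. As shares these were 0, 11.1, 66.7 and 100%. The shares in the same order were 5.66, 16.7, 63.8 and 99.1% on the rest of X. On the autosomes they were 11.4, 22.1, 70.4 and 99.0%. The shares were not tested class by class. The series list took in 178 of the 191 replicate 2 peaks (93.2%) and 118 of the 122 replicate 1 peaks (96.7%). Over all nuclear peaks of those lists the shares were 93.7% and 95.3%.

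Leaving out the run also moved the series list. Its 257 other members gave 43.6 peaks per Mb on the middle segment, against 56.8 on the rest of X. Of them 29 (11.3%) had a neighbour within 1 kb, 75.9% were found in replicate 2 and 40.5% in both replicates. In replicate 1 the density without the run was 18.6 peaks per Mb, and 11 of 110 peaks (10%) had a close neighbour. The run was singled out for its close spacing and its absence from replicate 2, and no run was taken out of the other regions, so the direction of these shifts was fixed by the choice. They are given as a description and with no test.

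At the bounds, membership turned on weak or moderate peaks. The first member was X:5907368-5907541, with a score of 8.32 and found in neither replicate, and the last peak before the lower bound was X:5840966-5841361, with 27.94 and found in replicate 2. The last member was X:11798006-11798335, with 8.81 and found in replicate 2, and the first peak past the upper bound was X:11806824-11806990, with 6.03 and found in neither.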

How the data were processed

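The TBP-1 ChIP-seq data of N2 embryos comprised 3 peak lists, 1 per ChIP replicate and 1 for the series. Reads were aligned with BWA (version not given) and the build was ce10, per the submitters' processing notes. Positions are on WormBase WS220, and MACS (replicates) or MACS v2 (series list) made the peaks, per the file headers and source columns. The caller's settings and control library are not stated there. Nor is the making of the series list, which was treated as pooled, an assumption, with no SD or n. The lists give 1 score per peak, deposited by the authors with no stated scale, so depth is unknown and Wilson intervals cover the counting of peaks only. P-values rest on the spread between 100 kb windows unless stated otherwise, and none on that between cultures.

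The mitochondrial peaks (11, 1 and 0) were left out, and chromosome lengths taken as the end of the last peak in any list. Densities (quasi-Poisson) and shares (quasi-binomial) were modelled over windows with dispersion of at least 1, in statsmodels 0.14.6, and tested two-sided, with Benjamini-Hochberg adjustment over 12 density, 14 series-list and 16 replicate tests and a threshold of 0.05. The scripts were tested on simulated data. Peaks named were the 12 strongest members in both replicates, the 5 strongest in neither and in 1, the 5 widest, those at the bounds, the 3 longest gaps and closest pairs, and the 3 strongest per replicate not in the other; the dense run and places beside it were named after their values were seen. The region, tests and lists were chosen with earlier results of these data known. An annotation or genome of WS220 was not used here.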

Additional observations from a re-analysis of the deposited data

How the results depend on the processing

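Over 43 results and 261 alternatives, 220 kept their direction and their side of the threshold (or, for a value with no test, stayed within 1 SD). The others follow, as ratios of the middle segment over its comparison, and their causes were not tested. The adjusted p is given where a call changed. The values without the dense run are the exception: some also crossed the threshold, and their p is left out. An exact binomial test on peaks, which treats neighbouring peaks as independent, called density against the rest of X (0.809, 0.0131) and the autosomes (1.16, 0.0367) in the series list, against the autosomes in replicate 1 (1.31, 0.0174) and against the right segment in replicate 2 (0.795, 0.0367). Among peaks above the median score, density was 0.703 (0.0507, call lost) against the right segment in the series list, 1.07 against the rest of X and 1.56 (0.0239, called) against the autosomes in replicate 1, and 1.04 against the left segment in replicate 2. Among series-list peaks found in both replicates it was 1.07 against the left segment and 0.735 (0.201, call lost) against the right. Counting covered base pairs gave 1.003 and 0.859 (0.831, call lost) against the left and right segments in the series list, 1.03 against the rest of X in replicate 1 and 1.01 against the left segment in replicate 2. Taking the middle 50% of X called density against the outer parts in the series list (0.774, 0.0193) and against the right part in replicate 2 (0.770, 0.0472). Against the middle segments of the autosomes, density in replicate 2 was 1.28 (0.0635, call lost) and the odds of wider peaks in replicate 1 were 0.949.

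For shares, the odds of strong peaks against the rest of X were 1.24 (strongest 25%) and 1.30 (strongest 10%) in the series list and 0.896 and 0.959 in replicate 1. With peaks matched by centres within 250 bp, replicate 1 peaks had odds of 1.29 against the autosomes of being found in replicate 2. With the score class as a covariate, series-list odds were 0.981 against the autosomes for replicate 1, and 0.9998 and 0.921 against the rest of X and the autosomes for both replicates; replicate 1 peaks had odds of 0.310 (0.0310, called) against the rest of X of being in replicate 2, and replicate 2 peaks 0.856 and 0.587 against the rest of X and the autosomes of being in replicate 1. For neighbours within 500 bp, series-list odds were 1.23 and 1.77 against the rest of X and autosomes. Replicate 1 odds were 5.22 (0.00154, called) against the autosomes, dense-run peaks included. Replicate 2 has no such pair and gave no value. Merging peaks closer than 500 bp put the mean share of replicate peaks at 7.12%. Without the dense run, the series list gave 0.767 for density against the rest of X, odds of 1.10 for strong peaks and 0.461 for neighbours, and odds of 1.73 against the autosomes of being in replicate 2; replicate 1 gave odds of 0.505 and 0.808 for neighbours and 1.03 and 2.44 for being in replicate 2, against the rest of X and the autosomes. The run was chosen after seeing the data, for its close spacing and its absence from replicate 2, and similar runs were kept elsewhere, so these shifts follow from the choice and a crossing of the threshold among them supports nothing.

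Using 1 replicate at a time, the odds of a series-list peak being found were 1.11 to 1.24 against the rest of X and 1.20 to 1.41 against the autosomes, and the share of replicate peaks on the middle segment was 7.18% to 7.24%. No paired analysis was possible because no list of an input sample was analysed here, so each replicate number stands for 1 sample. Depth is unknown, and limits what a missing overlap can show.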

Other observations

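Besides the dense run on the middle segment of X, 4 series-list runs of 5 or more closely spaced peaks had no replicate 2 peak. They began at II:3943309, IV:6357906, V:6172550 and X:14385034 and held 5, 5, 5 and 6 peaks. The series-list run on the middle segment met 11 separate replicate 1 peaks, and the run on II met 4. In each of the runs on IV, V and the right segment of X, a single replicate 1 peak lay across all the series-list peaks. The highest series score was 7.98 in the run on the middle segment, against 6.47, 12.65, 14.54 and 9.95 in the runs on II, IV, V and the right segment of X.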
